A study of Rattus norvegicus with 5 samples.

Results

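The glutathione, thioredoxin and antioxidant enzyme genes were followed in late-passage rat tendon stem/progenitor cells (rTSPCs). The members were chosen by gene symbol. They are the glutathione transferases, peroxidases and synthesis enzymes, the peroxiredoxins and thioredoxins, the superoxide dismutases with catalase, the haem, quinone and aldehyde enzymes, and the regulators Nfe2l2 and Keap1. The rule found 73 probe sets, each for a gene of its own, among the 7235 genes named on the 10141 probe sets of the arrays. From general knowledge of the pathway, 26 of the members were classed as NRF2-linked and 47 as other members. Nfe2l1 and Ftl1, also in the rule, had no named probe set and were not analysed here.

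NRF2, encoded by Nfe2l2, is a transcription factor that KEAP1 holds in the cytoplasm and marks for degradation. Oxidants and electrophiles modify KEAP1, NRF2 then enters the nucleus, and with small MAF proteins it binds antioxidant response elements in genes for glutathione synthesis, thioredoxin reduction and quinone detoxification. Glutathione and thioredoxin are the cell's main thiol reductants. Peroxiredoxins and glutathione peroxidases use them to remove peroxides, and superoxide dismutases supply the hydrogen peroxide that these enzymes and catalase break down. In dividing cells kept in culture, oxidant load is among the known causes of senescence.

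Both groups were rTSPCs from the Achilles tendons of young, 3-month-old rats, passaged serially to passage 12 as a model of replicative senescence. POG-treated cells received prim-O-glucosylcimifugin (POG), a chromone from Saposhnikovia root, at 20 μmol/L in every passage from passage 3. DMSO-treated cells received the same amount of the solvent, dimethyl sulfoxide. The paper states that the addition of POG ended once passage 12 was reached, and that the examinations followed. It does not say how long before harvest for the arrays this was. There were 2 POG arrays and 3 DMSO arrays. The cells were subcultured from selected colonies, and the labels do not say whether the replicates came from separate cultures or animals, so every p-value here reflects the array-to-array spread, which may be technical.

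Signals are given as deposited, on the log2 scale, and ran between 2.98 and 19.47 over all probe sets. Differences are POG minus DMSO on that scale with the standard error (SE) of the limma fit, n = 2 POG and 3 DMSO arrays throughout, and a change is called at a Benjamini-Hochberg adjusted p under 0.05 over all 10141 probe sets. Over the 73 members, the SD of the differences between a pair of arrays was 0.96 to 1.02 for a POG array against a DMSO array and 0.24 to 0.29 within a group. Of the 8 measured markers listed for tendon stem/progenitor cells, Col1a1 and Thy1 read at least 19.18 and 16.56 on every array and did not pass the threshold. Cd44 and Itgb1 fell by 1.26 ± 0.19 and 0.78 ± 0.17 (limma adjusted p = 0.000603 and 0.0044), and 0 of the 8 rose. Scx, the tendon transcription factor, read at most 6.11, under the lower quartile of all signals (6.17). Mkx and Tnmd had no named probe set. A mean at or under that quartile is called dim here, since no detection calls were used and such a signal could not be separated from background.

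Of the 73 members, 27 rose, 11 fell and 35 did not pass the threshold in POG-treated cells. Among all probe sets, 46.3% passed in either direction, 26.7% as higher and 19.6% as lower, against 37.0% and 15.1% of the members. The median difference was 0.26 for the members and 0.11 for all probe sets. The NRF2-linked members were split, with 9 higher, 7 lower, 10 not past the threshold and a median of 0.08. The other members had 18 higher, 4 lower, 25 not past the threshold and a median of 0.43. The counts of rises depended on the POG arrays. Without POG replicate 1, 12 members rose, of which 4 were NRF2-linked and 8 were others, and without POG replicate 2, 16 rose, of which 6 and 10. The NRF2-linked falls then numbered 7 and 6. The test of the study's methods, adjusted, gave 2 rises and 7 falls among the NRF2-linked members, and 8 rises and 1 fall among the others. Those 7 falls were not the same set as with limma, since Gss was lost and Fth1 was gained. The 4 falls of other members became 2 without POG replicate 1, DMSO replicate 2 or DMSO replicate 3. The median of the NRF2-linked members was -0.115 among the brighter probe sets, and -0.004 with each array centred on its median, a step that lowers all differences by the same amount. In 14 members the difference was at least 1 in size, as in 1908 of all 10141 probe sets. The groups did not overlap in 52 of the 73 members and in 6775 of all probe sets, so a lack of overlap was common here.

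**Figure D1:**
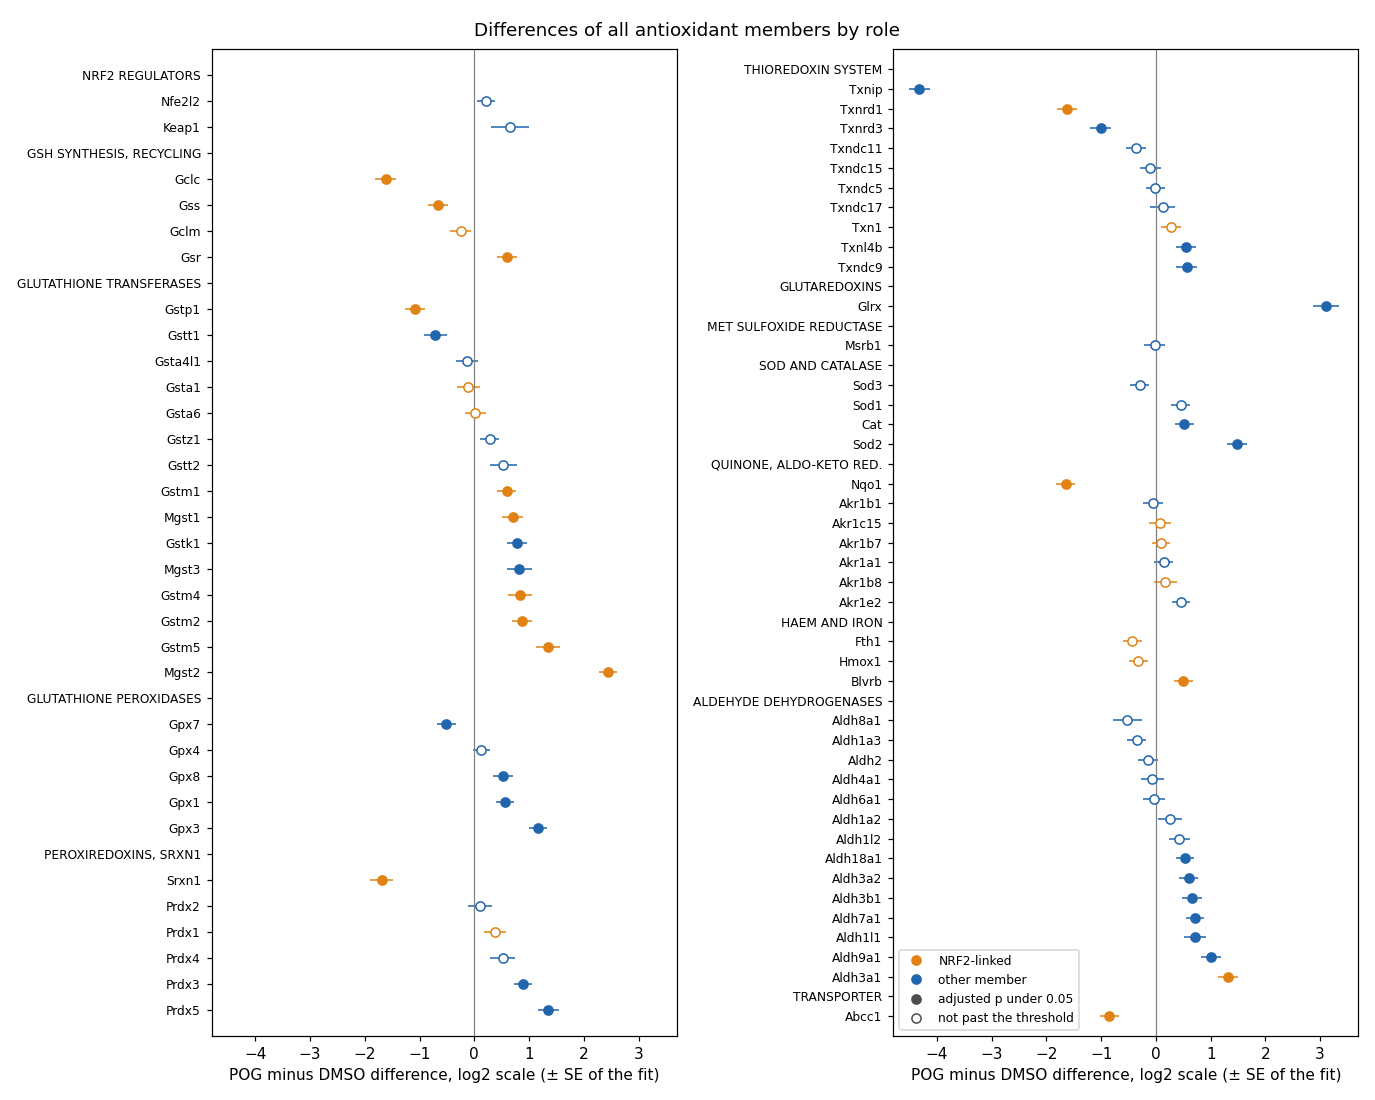
Difference between POG and DMSO arrays (log2 scale, POG minus DMSO, ± SE of the limma fit) for all 73 members, grouped by role, with NRF2-linked members in orange, other members in blue, and filled points past an adjusted p of 0.05. Txnip lies farthest to the left at -4.32 and Glrx farthest to the right at 3.11, and NRF2-linked members stand on both sides of 0.

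Genes that mark other cell types or states moved over the same arrays, where 26.7% of all probe sets passed as higher and 19.6% as lower. Of 7 measured smooth muscle markers 6 fell, and their summed level was 17.68 to 17.72 in POG arrays and 19.86 to 19.96 in DMSO arrays. Of 9 proliferation genes 8 rose (12.85 to 12.89 in POG arrays, 11.73 to 11.89 in DMSO arrays). All 5 measured leukocyte and macrophage genes rose (9.71 to 10.09 in POG arrays, 8.18 to 9.15 in DMSO arrays), with Ptprc, the defining leukocyte gene, not among the named probe sets. Lyz2, Cd53 and Cd68 were dim in DMSO arrays and Fcer1g in both groups, so the size of their differences could not be separated from background. Cd14, dim in neither group, had means of 9.24 in POG and 8.15 in DMSO arrays. The part of these cell types and states in the results was not tested, and fewer cells of a type and less RNA per cell cannot be told apart in bulk RNA.

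The transcripts of the regulators did not pass the threshold. Nfe2l2 read 12.41 and 12.56 in POG arrays against 12.21, 12.18 and 12.44 in DMSO arrays, a difference of 0.21 ± 0.17 (95% confidence interval -0.18 to 0.60, limma adjusted p = 0.347). The groups overlapped, and the interval leaves room for a modest change either way. Keap1 read 7.89 and 6.81 in POG arrays and 6.58, 6.27 and 7.24 in DMSO arrays, 0.65 ± 0.34 (limma adjusted p = 0.141). The POG arrays were far apart here, and the gene passed the threshold without POG replicate 2 (1.19, limma adjusted p = 0.0415) or without DMSO replicate 3 (0.925, limma adjusted p = 0.0455). Without POG replicate 1 the difference shrank to 0.113 (limma adjusted p = 0.83), so its size rested on single arrays. RNA level does not report the stability of the NRF2 protein, through which KEAP1 acts.

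Of the 26 NRF2-linked members, the 7 that fell were Srxn1, Nqo1, Txnrd1, Gclc, Gstp1, Abcc1 and Gss. Nqo1, the quinone reductase often read as a marker of NRF2 activity, had signals of 13.68 and 13.67 in POG arrays against 15.14, 15.42 and 15.41 in DMSO arrays. It fell by 1.65 ± 0.17, or 3.13-fold (limma adjusted p = 5.38e-05), and the 2 POG arrays were nearly equal and well below every DMSO array. It was the one member of the quinone and aldo-keto reductases to pass the threshold among 7 measured. The remaining 6, between -0.06 and 0.46, included the NRF2-linked Akr1b8 (0.17), Akr1b7 (0.09) and Akr1c15 (0.08), of which the last 2 were dim in both groups.

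**Figure D2:**
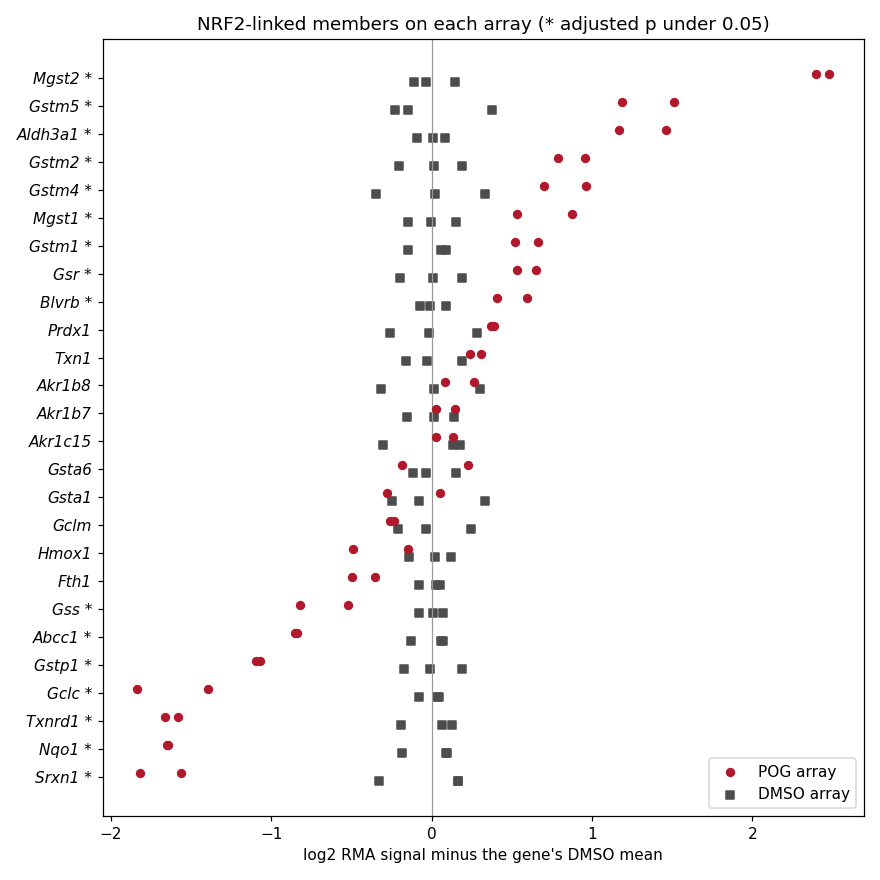
Log2 signal of the 26 NRF2-linked members on each array, relative to the DMSO mean of the same gene (POG arrays as circles above, DMSO arrays as squares below; asterisks mark an adjusted p under 0.05). The 7 members at the lower end, Srxn1 up to Gss, have both POG arrays below all 3 DMSO arrays, and the 9 at the upper end have both above. The groups did not overlap in 21 of these 26 members, and in 6775 of all 10141 probe sets.

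Gclc encodes the catalytic subunit of glutamate-cysteine ligase, the first and rate-limiting enzyme of glutathione synthesis. Its signals were 7.60 and 8.04 in POG arrays and 9.48, 9.47 and 9.36 in DMSO arrays. It fell by 1.62 ± 0.19, or 3.07-fold (limma adjusted p = 0.000104), with no overlap between the groups. Gclm, the modifier subunit of the same ligase, read 8.47 and 8.50 in POG arrays and 8.70, 8.98 and 8.52 in DMSO arrays. Its difference was -0.25 ± 0.19 (interval -0.67 to 0.17, limma adjusted p = 0.297). Gss, glutathione synthetase, which adds the last amino acid, read 10.47 and 10.17 in POG arrays and 10.91, 11.06 and 11.00 in DMSO arrays. The POG arrays lay below all DMSO arrays. It fell by 0.67 ± 0.18 (limma adjusted p = 0.0117), and without POG replicate 2 the difference was -0.52 and did not pass (limma adjusted p = 0.105).

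Gsr, glutathione reductase, which returns oxidised glutathione to its reduced form, moved the other way. Its signals were 9.76 and 9.64 in POG arrays and 8.91, 9.30 and 9.12 in DMSO arrays, a rise of 0.59 ± 0.18 (limma adjusted p = 0.0243). That call was lost without POG replicate 1, POG replicate 2 or DMSO replicate 1 (0.53, 0.65 and 0.49, limma adjusted p = 0.125, 0.0769 and 0.0577).

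Outside the members, the list of glutathione supply and breakdown held 13 measured genes of 18, of which 5 rose and 1 fell. This was 38.5% higher and 7.69% lower, against 26.7% and 19.6% of all probe sets. Cth, cystathionine gamma-lyase, which makes cysteine from cystathionine, read 12.48 and 12.67 in POG arrays and 9.93, 9.95 and 10.03 in DMSO arrays, a rise of 2.60 ± 0.17 (limma adjusted p = 1.72e-06). Esd, which releases glutathione from S-formylglutathione, rose by 1.79 ± 0.21, and Oplah, 5-oxoprolinase of the glutathione breakdown cycle, by 1.24 ± 0.22 at signals dim in both groups. Slc7a11, the cystine importer and a known NRF2 target, was the gene that fell (-1.01 ± 0.19, limma adjusted p = 0.00214).

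In the thioredoxin system, Txnrd1 fell and its substrate did not pass the threshold. Txnrd1, the cytosolic thioredoxin reductase, read 10.36 and 10.44 in POG arrays and 11.83, 12.15 and 12.09 in DMSO arrays. It fell by 1.62 ± 0.18, or 3.08-fold (limma adjusted p = 6.66e-05), and the groups were more than 1 apart. Txn1, thioredoxin itself, read 17.13 and 17.06 in POG arrays and 16.66, 16.79 and 17.01 in DMSO arrays, 0.27 ± 0.18 (limma adjusted p = 0.226). Txnrd3, a testis-enriched thioredoxin-glutathione reductase, was dim in both groups, with 5.01 and 4.63 in POG arrays and 5.78, 6.0 and 5.71 in DMSO arrays, and fell by 1.01 ± 0.19 (limma adjusted p = 0.00213).

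Txnip, which binds reduced thioredoxin and inhibits it, and which also limits glucose uptake, showed the largest difference of any member. It read 5.93 and 5.64 in POG arrays against 10.32, 10.05 and 9.93 in DMSO arrays. It fell by 4.32 ± 0.19, or 19.9-fold (limma adjusted p = 1.76e-07), which ranked 28 among the falls of all 10141 probe sets. Both POG arrays were in the dim range, so the lower end of this difference could not be separated from background. The remaining members of the thioredoxin family had small differences, between -0.37 and 0.56. Among them Txndc9, a cofactor of chaperonin folding, rose by 0.56 ± 0.19 (limma adjusted p = 0.0360) and Txnl4b, a thioredoxin-like protein of the spliceosome, by 0.55 ± 0.19 (limma adjusted p = 0.0366). Each of these 2 calls was lost without either POG array or without DMSO replicate 1 or 2, with limma adjusted p between 0.0705 and 0.172.

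**Figure D3:**
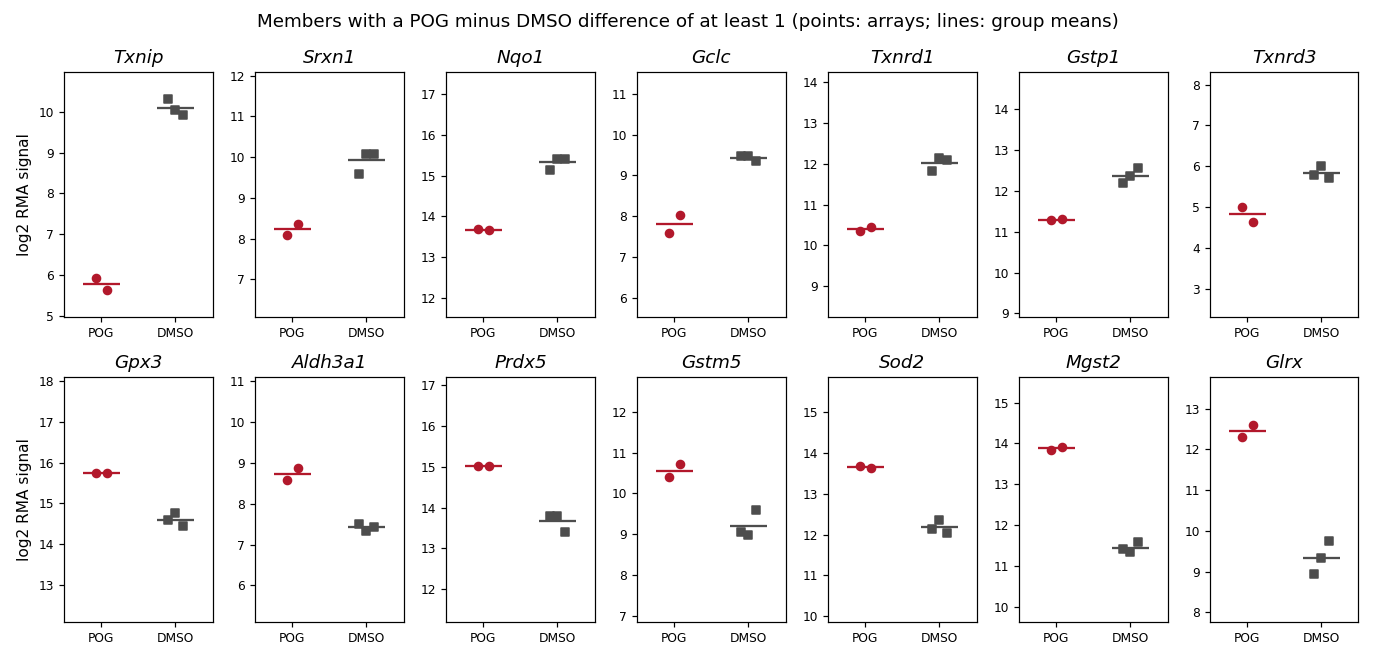
Log2 RMA signal on each array for the 14 members whose difference was at least 1 in size, with POG arrays on the left and DMSO arrays on the right of each panel, lines at the group means and the same height of axis in every panel. The groups are apart in all 14, with the POG arrays lower in the upper row, from Txnip to Txnrd3, and higher in the lower row, from Gpx3 to Glrx.

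Glrx, glutaredoxin, uses glutathione to release proteins from mixed disulfides, and it rose most among the members. Its signals were 12.31 and 12.60 in POG arrays and 8.94, 9.33 and 9.75 in DMSO arrays. This was 3.11 ± 0.24, or 8.66-fold (limma adjusted p = 5.89e-06), and ranked 68 among the rises of all probe sets. The DMSO arrays differed among themselves by less than 1, against a gap of more than 2 between the groups. Glrx is not NRF2-linked in the classing used here. Msrb1, which reduces methionine sulfoxide and was the one such enzyme measured, had a difference of -0.02 ± 0.19.

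Peroxiredoxins and their repair enzyme differed in direction. Srxn1, sulfiredoxin, which restores overoxidised peroxiredoxins and is a known NRF2 target, read 8.10 and 8.35 in POG arrays against 9.59, 10.08 and 10.08 in DMSO arrays. It fell by 1.69 ± 0.21, or 3.23-fold (limma adjusted p = 0.000144), with both POG arrays more than 1 below the lowest DMSO array. Of the 5 peroxiredoxins, 2 rose and 0 fell, beside 26.7% higher and 19.6% lower among all probe sets. Prdx5, found in mitochondria and peroxisomes, read 15.01 in both POG arrays and 13.80, 13.79 and 13.39 in DMSO arrays, a rise of 1.35 ± 0.19 (limma adjusted p = 0.000347). Prdx3, the peroxiredoxin of the mitochondrial matrix, rose by 0.89 ± 0.17 (limma adjusted p = 0.00209). Its signals of 11.93 and 12.11 in POG arrays stood clear of 11.15, 11.10 and 11.15 in DMSO arrays. The cytosolic NRF2-linked Prdx1 (0.38 ± 0.20, limma adjusted p = 0.137) did not pass, nor did Prdx2 and Prdx4, at 0.10 and 0.52. Prdx4, of the endoplasmic reticulum, passed without DMSO replicate 3 (0.73, limma adjusted p = 0.0194).

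Of the 3 superoxide dismutases and catalase, 2 rose and 0 fell (50% and 0%, against 26.7% and 19.6% of all probe sets). Sod2, the manganese enzyme of the mitochondrial matrix, read 13.69 and 13.63 in POG arrays and 12.14, 12.36 and 12.03 in DMSO arrays. The rise was 1.48 ± 0.18, or 2.80-fold (limma adjusted p = 0.000123), with no overlap. Cytosolic Sod1 (0.45 ± 0.18, limma adjusted p = 0.0682) and secreted Sod3 (-0.30 ± 0.17, limma adjusted p = 0.169) did not pass, although Sod1 did without DMSO replicate 3 (0.545, limma adjusted p = 0.0497). Cat, the peroxisomal catalase, read 15.13 and 15.35 in POG arrays and 14.65, 14.83 and 14.68 in DMSO arrays, a rise of 0.52 ± 0.17 (limma adjusted p = 0.0324). It was lost without either POG array or without DMSO replicate 1 or 3 (0.41 to 0.63, limma adjusted p = 0.0599 to 0.189).

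Among the glutathione peroxidases 3 of 5 rose and 1 fell (60% and 20%, against 26.7% and 19.6% of all probe sets). Gpx3, the secreted plasma form, read 15.75 in both POG arrays and 14.58, 14.76 and 14.44 in DMSO arrays, a rise of 1.16 ± 0.17, or 2.23-fold (limma adjusted p = 0.000580). Gpx1, the cytosolic and mitochondrial form, rose by 0.56 ± 0.17 (limma adjusted p = 0.0243), and Gpx7, an endoplasmic reticulum form that serves oxidative protein folding, fell by 0.51 ± 0.18 (limma adjusted p = 0.0371). Gpx4, which reduces lipid peroxides in membranes, had a difference of 0.13 ± 0.16 (interval -0.24 to 0.50). The Gpx1 call was lost without either POG array or DMSO replicate 2 (limma adjusted p = 0.0537 to 0.151). The Gpx7 call was lost without either POG array or without DMSO replicate 2 or 3 (limma adjusted p = 0.0577 to 0.146).

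The members classed as mitochondrial, across roles, counted 10, of which 6 rose and 0 fell, with a median of 0.62. Gpx1 was not placed in this class. Among all probe sets, 26.7% passed as higher and 19.6% as lower. The class was led by Sod2 and Prdx5, and the 4 that did not pass, all aldehyde dehydrogenases, lay between -0.14 and 0.43. Of the 9 members of the endoplasmic reticulum and secretory route 4 rose and 1 fell.

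Glutathione transferases, which join glutathione to electrophiles, rose in 8 and fell in 2 of 15 measured members. These shares were 53.3% and 13.3%, against 26.7% and 19.6% of all probe sets. Mgst2, a membrane enzyme that can also make leukotriene C4, read 13.84 and 13.92 in POG arrays and 11.41, 11.33 and 11.59 in DMSO arrays. It rose by 2.44 ± 0.17, or 5.41-fold (limma adjusted p = 3.29e-06), the largest rise among the NRF2-linked members. Mgst1 of the same membrane family read 10.52 and 10.18 in POG arrays and 9.50, 9.64 and 9.80 in DMSO arrays. It rose by 0.70 ± 0.19 (limma adjusted p = 0.0124), a call lost without POG replicate 1 (0.533, limma adjusted p = 0.109).

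All 4 measured mu-class transferases rose in the limma fit. Each of these 4 calls was lost with the test of the study's methods, adjusted. Gstm5 read 10.39 and 10.72 in POG arrays and 9.06, 8.98 and 9.58 in DMSO arrays, a rise of 1.35 ± 0.22 (limma adjusted p = 0.000955). Gstm2 read 12.70 and 12.53 in POG arrays and 11.54, 11.93 and 11.76 in DMSO arrays, a rise of 0.87 ± 0.18 (limma adjusted p = 0.00401). In neither gene did the groups overlap, as in 6775 of all 10141 probe sets. Gstm4, with 8.29 and 8.03 in POG arrays and 6.98, 7.35 and 7.66 in DMSO arrays, rose by 0.83 ± 0.22 (limma adjusted p = 0.0124) and did not pass without POG replicate 1 (0.70, limma adjusted p = 0.100). Gstm1, with 10.02 and 9.88 in POG arrays and 9.21, 9.42 and 9.45 in DMSO arrays, rose by 0.59 ± 0.17 (limma adjusted p = 0.0194) and did not pass without POG replicate 1 or 2 (limma adjusted p = 0.111 and 0.0601). The mu-class genes are close paralogs, and probes that bind more than 1 of them would make these values depend on each other.

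Gstp1, the pi-class transferase, fell where the mu class rose. It read 11.28 and 11.30 in POG arrays against 12.20, 12.36 and 12.56 in DMSO arrays, and fell by 1.08 ± 0.18, or 2.12-fold (limma adjusted p = 0.000973). Both POG arrays were below every DMSO array by more than the spread within either group. The theta-class Gstt1 fell by 0.71 ± 0.21 (limma adjusted p = 0.0214) at dim signals, and not without POG replicate 1 or DMSO replicate 2 or 3 (limma adjusted p = 0.0501 to 0.200). The alpha-class Gsta1 (-0.11 ± 0.21) and Gsta6 (0.02 ± 0.19, dim) did not pass. Abcc1, a pump that exports glutathione conjugates, read 8.82 and 8.83 in POG arrays and 9.74, 9.54 and 9.73 in DMSO arrays, and fell by 0.85 ± 0.17 (limma adjusted p = 0.00293).

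The haem and iron members mostly did not pass. Hmox1, haem oxygenase 1, the inducible enzyme that opens the haem ring, read 14.42 and 14.76 in POG arrays and 15.03, 14.93 and 14.77 in DMSO arrays. Its difference was -0.32 ± 0.18 (interval -0.73 to 0.09, limma adjusted p = 0.178), and the higher POG array lay next to the lowest DMSO array. Fth1, the ferritin heavy chain, read 16.00 and 16.14 in POG arrays and 16.52, 16.55 and 16.42 in DMSO arrays, -0.43 ± 0.17 (limma adjusted p = 0.0588). Blvrb, biliverdin reductase B, read 9.70 and 9.51 in POG arrays and 9.09, 9.19 and 9.03 in DMSO arrays, a rise of 0.50 ± 0.17 (limma adjusted p = 0.0348). The Blvrb call was lost whichever single array was left out (limma adjusted p = 0.0571 to 0.181).

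Members of the aldehyde dehydrogenase family, some of which oxidise aldehydes such as those from lipid peroxidation, rose in 7 and fell in 0 of 14. These shares were 50% and 0%, against 26.7% and 19.6% of all probe sets. Aldh3a1, NRF2-linked and known as a corneal protein, read 8.59 and 8.88 in POG arrays and 7.50, 7.33 and 7.43 in DMSO arrays, a rise of 1.31 ± 0.18, or 2.49-fold (limma adjusted p = 0.000267). Aldh9a1, which acts in carnitine synthesis, read 13.19 and 13.30 in POG arrays and 12.03, 12.45 and 12.26 in DMSO arrays, a rise of 1.00 ± 0.18 after rounding, just under the size of 1 used above (limma adjusted p = 0.00194). The groups did not overlap in either gene. The remaining 5 that rose did so by 0.53 to 0.72. Of these, Aldh3b1 was dim in both groups and Aldh1l1 in DMSO arrays. The size of either difference could not be separated from background. The 7 that did not pass lay between -0.52 and 0.43, among them Aldh2, the mitochondrial acetaldehyde enzyme, at -0.14 ± 0.18.

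Lists of related genes outside the members gave the wider setting, beside 26.7% higher and 19.6% lower among all probe sets. They overlap and are not separate counts, since Slc7a11, Sqstm1, Me1, Taldo1 and Tkt each stand both among the other NRF2-linked genes and in the glutathione, partner or NADPH list. Of 15 measured NRF2-linked genes outside the members, 7 fell and 1 rose, with a median of -0.29. Ephx1, microsomal epoxide hydrolase, read 5.98 and 6.01 in POG arrays and 9.52, 9.36 and 9.64 in DMSO arrays, and fell by 3.51 ± 0.17 (limma adjusted p = 3.01e-07). Its POG arrays were dim, so the lower end of this difference is not separable from background. Ptgr1, prostaglandin reductase 1, fell by 1.12 ± 0.21, and Slc6a9, a glycine transporter, was the one that rose, by 1.38 ± 0.17. Among 9 measured partners and control genes of NRF2, which include genes that act with it and against it, 6 fell and 0 rose. These included Mafg and Mafk, small MAF partners that bind DNA with NRF2 (-1.35 ± 0.23 and -0.66 ± 0.19), and Sqstm1, the p62 protein that draws KEAP1 into autophagy and is also an NRF2 target (-0.88 ± 0.23). Mafg was dim in POG arrays, and its difference has the same limit as that of Ephx1. Mafk did not pass without POG replicate 2 (-0.473, limma adjusted p = 0.143), nor Sqstm1 without POG replicate 1 (-0.733, limma adjusted p = 0.0953). Dpp3, Gsk3b and Bach2 also fell (-0.67 ± 0.20, -0.59 ± 0.19 and -0.47 ± 0.17), Bach2 at signals dim in both groups. Bach1, a repressor of NRF2 targets, did not pass (0.49 ± 0.20, limma adjusted p = 0.0677). As the list mixes roles, its count of falls gives no direction for NRF2 itself.

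NADPH supplies the electrons for glutathione and thioredoxin reductases, and of 5 measured supply genes 3 fell and 1 rose. This was 60% lower and 20% higher, against 19.6% and 26.7% of all probe sets. The cytosolic malic enzyme Me1 and the cytosolic isocitrate dehydrogenase Idh1 fell by 0.61 ± 0.17 and 0.49 ± 0.17, and the mitochondrial Idh2 rose by 0.94 ± 0.18 (limma adjusted p = 0.0138, 0.0346 and 0.00247). The Me1 and Idh1 calls were lost without either POG array, and that of Idh1 also without DMSO replicate 2 or 3 (limma adjusted p = 0.0548 to 0.170). Genes of selenium handling, which feeds the glutathione peroxidases and thioredoxin reductases, gave 3 rises and 1 fall in 12. These shares, 25% and 8.33%, stand beside 26.7% and 19.6% of all probe sets. Selenop, the secreted selenium carrier, read 12.06 and 12.34 in POG arrays and 9.04, 9.0 and 9.24 in DMSO arrays, a rise of 3.11 ± 0.18 (limma adjusted p = 8.35e-07). Sephs1 and Pstk, of selenophosphate and selenocysteine metabolism, rose by 1.06 ± 0.17 and 0.96 ± 0.24, and Pstk did not pass without POG replicate 1 (0.747, limma adjusted p = 0.0912).

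Oxidant sources rose in 6 and fell in 1 of 9 measured genes (66.7% and 11.1%, against 26.7% and 19.6% of all probe sets). Xdh, xanthine dehydrogenase, read 11.79 and 11.93 in POG arrays and 8.72, 8.58 and 9.13 in DMSO arrays, a rise of 3.05 ± 0.20 (limma adjusted p = 2.09e-06). Maoa, monoamine oxidase A, rose by 2.31 ± 0.20 and Nox1, an NADPH oxidase, by 2.62 ± 0.18, while the NADPH oxidase Nox4 fell by 2.0 ± 0.20 (limma adjusted p = 3.92e-05). Nox1 and 3 more of the genes that rose, Maob, Cybb and Duox1, were dim in DMSO arrays, so the size of their differences could not be separated from background. In the metal-binding list 5 of 6 measured genes rose (83.3%) and 0 fell. The metallothioneins, small zinc-binding proteins that also quench oxidants, led it. Mt2A read 18.01 and 18.40 in POG arrays and 13.82, 14.17 and 14.18 in DMSO arrays, a rise of 4.15 ± 0.20 (limma adjusted p = 2.63e-07), and Mt1 rose by 3.58 ± 0.26. Cp, the ferroxidase ceruloplasmin, rose by 2.23 ± 0.22.

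**Figure D4:**
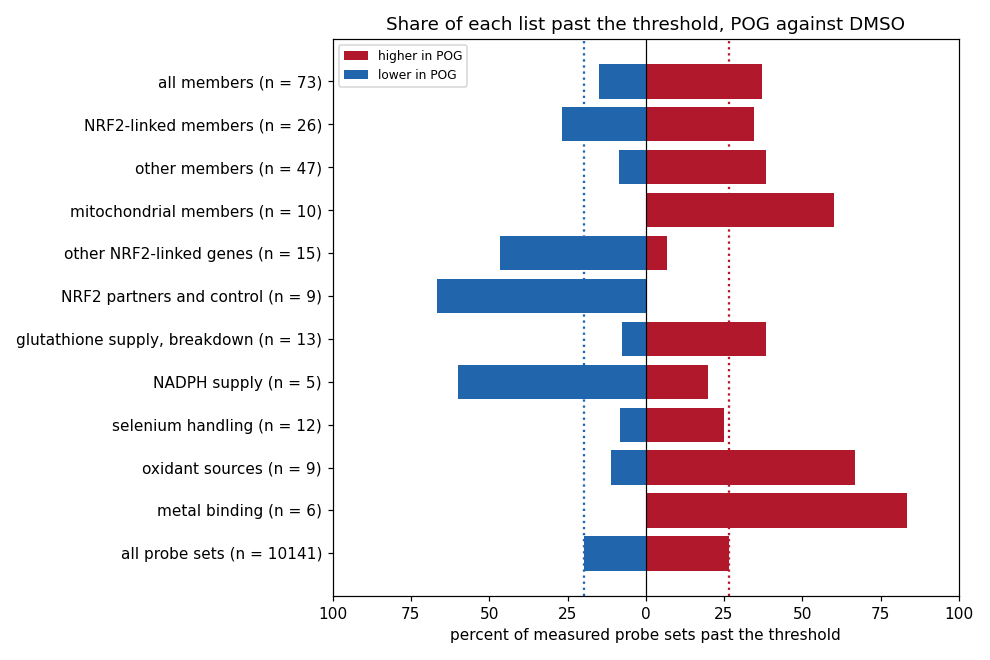
Percent of measured probe sets past an adjusted p of 0.05, higher in POG to the right and lower in POG to the left, for the members and the related lists, with dotted lines at the shares among all probe sets (26.7% higher, 19.6% lower). The NRF2-linked genes outside the members and the NRF2 partners and control genes extend mostly to the left. The oxidant sources, metal-binding genes and mitochondrial members extend mostly to the right. Several lists hold fewer than 10 genes.

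The promoters of NRF2-linked members are shown because the element through which NRF2 acts can be read in them. RefSeq promoter windows (GRCr8, 250 bases before to 50 after the start of transcription) matched 59 of the 73 members, with 62 windows in all. The core of the antioxidant response element, TGACNNNGC on either strand, was found in 18 of these 62 (29.0%). It was in 7 of 22 windows of NRF2-linked members (31.8%), in 11 of 40 of other members (27.5%) and in 12.1% of all 33469 promoters. Among NRF2-linked windows it was in 1 of 6 of members that rose, 2 of 8 of those that fell and 4 of 8 of those that did not pass. Mgst2, Aldh3a1 and Gsr, NRF2-linked members that rose, had no window and were not searched. Of the NRF2-linked members past the threshold that had a window, the following 3 held the core. Their 250 bases before the start are printed 5′ to 3′ along the gene, with each match in capitals.
Txnrd1, chr7:22755905-22756154, minus strand: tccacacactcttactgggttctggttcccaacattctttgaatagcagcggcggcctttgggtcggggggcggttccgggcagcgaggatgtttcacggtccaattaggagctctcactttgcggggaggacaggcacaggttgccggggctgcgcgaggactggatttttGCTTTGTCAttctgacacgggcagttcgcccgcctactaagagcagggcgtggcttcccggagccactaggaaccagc
Gstm5, chr2:198219519-198219768, plus strand: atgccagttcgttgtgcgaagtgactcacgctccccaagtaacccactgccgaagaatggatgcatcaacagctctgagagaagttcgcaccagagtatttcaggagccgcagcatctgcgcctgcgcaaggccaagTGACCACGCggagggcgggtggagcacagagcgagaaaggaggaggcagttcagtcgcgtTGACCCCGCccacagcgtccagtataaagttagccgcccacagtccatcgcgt
Gstp1, chr1:210769706-210769955, minus strand: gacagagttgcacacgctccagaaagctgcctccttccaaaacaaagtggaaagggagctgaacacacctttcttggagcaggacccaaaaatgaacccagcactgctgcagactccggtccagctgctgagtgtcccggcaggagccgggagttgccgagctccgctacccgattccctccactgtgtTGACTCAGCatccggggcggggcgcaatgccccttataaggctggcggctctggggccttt

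In Txnrd1, which fell, 1 match lay on the opposite strand and began 78 bases before the start of 1 of the gene's 2 windows. In Gstm5, which rose, 2 matches began 113 and 53 bases before the start. In Gstp1, which fell, the match began 61 bases before the start and overlapped an AP-1 motif, TGANTCA, which 7.33% of all promoters held. The windows of Nqo1, Gclc, Gss, Srxn1 and Abcc1, all lower in POG-treated cells, held no such match, which says only that these letters are not in these windows. A match is a description of the sequence and not a bound site.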

How the data were processed

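The deposited tables held log2 signals for 10141 probe sets of Affymetrix rat arrays. The authors obtained them with robust multi-array average (RMA; the submitters' processing notes give no version), a method with background correction, normalization and probe summary that compresses low signals. Both deposited tables were the same (largest difference 0). The platform annotation gave 7240 probe sets a symbol, 1 each. Its record and the study name the array differently, and it was not settled if these are one design. The sources give no rule for the choice of probe sets.

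POG and DMSO arrays were compared with limma 3.58.1 in R 4.3.3 (two-sided, Benjamini-Hochberg over all probe sets, threshold 0.05, no replicate block). The fit was tested on simulated data. The number of arrays limits the precision, and 2 arrays against 3 are too few for an exact permutation test.

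The members and lists were chosen with earlier results of these data known. Named were the NRF2-linked members and regulators, the 2 largest rises and falls per role without overlap, members with a difference of at least 1, and up to 3 genes of each related list by smallest p. Slc7a11, Nox4, Bach1, Prdx2, Prdx4, Sod1, Sod3, Gpx4, Msrb1 and Aldh2 were added after their values were seen. Cd14, Cd44, Itgb1, Dpp3, Gsk3b and Bach2 were also named with their values known, and are not in the counts of alternatives below. Marker lists not described in the report were endothelium (1 of 3 measured higher, 1 lower) and fat cell (2 of 4 higher, 0 lower). Of 8 tendon markers 0 were higher and 2 lower. As alternatives, the fit was repeated on the second table, after quantile normalization or centring of arrays, on brighter probe sets (mean of at least 8.45, 5071 probe sets), with trended and robust moderation, with array weights, with the replicate block, and without each array. The methods' t-test, the study's thresholds (fold change over 1.5) and the mean over a gene's probe sets were also tried. The study's thresholds were applied to the limma p without adjustment, and not to the p of the t-test.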

Additional observations from a re-analysis of the deposited data

How the results depend on the processing

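The 7 falls of NRF2-linked members kept their direction in every alternative run, and 6 of them stayed past the threshold in all; Gss was lost with the methods' t-test and without POG replicate 2. Of 53 genes named with a call, 29 passed in every alternative that gave them a value (Aldh3a1, Cp, Ephx1, Nox1, Sephs1 and Txnip were not among the brighter probe sets), 24 were lost in at least 1 and 0 reversed; leaving out a POG array leaves 1, assumed to vary like the DMSO group. Of the 20 that did not pass, 7 (Fth1, Keap1, Prdx1, Prdx4, Sod1, Sod3, Bach1) passed in some. The methods' t-test, after Benjamini-Hochberg, called 2078 probe sets in place of 4694, 10 members as higher in place of 27 (2 NRF2-linked in place of 9, 8 others in place of 18) and 1 other member as lower in place of 4. The brighter probe sets gave 2894 calls, 1 other member lower and an NRF2-linked median of -0.115, and centring a median of -0.00417. Without 1 array, calls ranged between 2900 and 4347, members higher between 12 and 27, NRF2-linked members higher between 4 and 8, others higher between 8 and 19, and others lower between 2 and 5. Arrays with the same replicate number shared no deviation from their group means (correlations 0.00417 and 0.00522). The deviations of 2 POG arrays mirror each other, so this cannot tell if the cultures were paired. The replicate block gave 4193 calls, with 25 members higher and 10 lower. DMSO replicate 3 has no POG array of its number, so the block gives the same differences as leaving that array out. Reversed differences, all small, were Akr1c15 with centring (-0.00833) and the replicate block (-0.075), Gsta1 and Msrb1 with the replicate block (0.05 and 0.005) and Gsta6 with quantile normalization (-0.104) and centring (-0.0683). Without 1 array, differences spanned -0.075 to 0.165 for Akr1c15, -0.28 to 0.05 for Gsta1, -0.187 to 0.223 for Gsta6, -0.153 to 0.117 for Msrb1, -0.193 to 0.397 for Prdx2 and -0.31 to 0.03 for Aldh2. Low signals limit what can be read from the 10 members dim in both groups.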
